A study of Homo sapiens with 9 samples.

Results

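The genes described here encode the machinery that makes and uses small RNAs: the argonautes AGO1, AGO2, AGO3 and AGO4, their partner TNRC6A, the nuclease DICER1 with its partner TARBP2, the nuclease DROSHA with its partner DGCR8, and the exporter XPO5. They were chosen by name as the proteins that small interfering RNAs (siRNAs) or microRNAs engage, and each of the 10 had a single probe set, out of 14232 genes with a probe set of 1 gene symbol and 22011 probe sets in all. Expression was measured on Affymetrix whole-transcript arrays in HEK293, an established line of human embryonic kidney origin, harvested 48 h after a Stealth siRNA was introduced. The 9 arrays form 3 groups of 3: siRNA labelled ZNF326 (siZNF326), siRNA against DBC1, the product of the gene CCAR2 (siDBC1), and control siRNA (siCTR). All 3 groups had been transfected with an siRNA, so the arrays compare siRNAs of different targets and hold no group of cells that received none. All cells were of 1 line, and the design names independent experiments as the replicates. In bulk RNA, fewer cells that express a gene and less of its RNA per cell cannot be told apart.

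MicroRNAs are cut from nuclear hairpin transcripts by DROSHA and DGCR8, which together form the Microprocessor, carried to the cytoplasm by exportin 5 (XPO5) and cut again by Dicer (DICER1) with TARBP2. The product, or an siRNA supplied from outside, is loaded into an argonaute, and the argonaute recruits a protein of the TNRC6 family, which brings the enzymes that shorten and decap the target messenger RNA. Among human argonautes AGO2 is the one best known for cutting a fully matched target, the step on which knockdown by siRNA mainly relies. A synthetic siRNA enters at the loading step and bypasses the Microprocessor and the exporter.

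The genes AGO4, AGO1 and AGO3 lie in this order on chromosome 1, with 1 pseudogene (CFAP97P1) between AGO1 and AGO3 in the RefSeq gene table. These 3 genes, TNRC6A and DGCR8 are the 5 whose values on the arrays labelled siZNF326 all lay above those of siCTR, and their promoters are shown for that reason. Each sequence is from RefSeq, build GRCh38.p14, and runs from 250 bases before to 50 bases after the annotated start. Capitals mark CCAAT or its reverse complement ATTGG, and GGGCGG or its reverse complement CCGCCC, searched on both strands.

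AGO4 promoter, chr1:35807766-35808065, + strand: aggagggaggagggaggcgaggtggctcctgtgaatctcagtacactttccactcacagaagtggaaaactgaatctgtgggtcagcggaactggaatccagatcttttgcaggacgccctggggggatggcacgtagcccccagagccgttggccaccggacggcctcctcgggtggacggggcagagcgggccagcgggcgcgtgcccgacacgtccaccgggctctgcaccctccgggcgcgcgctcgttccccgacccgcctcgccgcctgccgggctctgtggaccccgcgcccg
AGO1 promoter, chr1:35882959-35883258, + strand: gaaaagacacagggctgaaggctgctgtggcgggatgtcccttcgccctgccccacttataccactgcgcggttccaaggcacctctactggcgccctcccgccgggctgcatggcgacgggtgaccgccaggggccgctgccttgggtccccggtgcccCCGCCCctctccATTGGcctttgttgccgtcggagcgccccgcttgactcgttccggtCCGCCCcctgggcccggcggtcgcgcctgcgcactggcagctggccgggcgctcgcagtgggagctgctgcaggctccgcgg
AGO3 promoter, chr1:35930855-35931154, + strand: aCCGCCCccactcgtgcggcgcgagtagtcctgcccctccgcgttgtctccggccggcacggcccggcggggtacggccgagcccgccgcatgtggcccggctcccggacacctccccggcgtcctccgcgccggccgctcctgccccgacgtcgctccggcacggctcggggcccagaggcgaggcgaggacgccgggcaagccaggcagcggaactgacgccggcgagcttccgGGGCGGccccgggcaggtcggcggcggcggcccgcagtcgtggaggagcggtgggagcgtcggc
TNRC6A promoter, chr16:24729401-24729700, + strand: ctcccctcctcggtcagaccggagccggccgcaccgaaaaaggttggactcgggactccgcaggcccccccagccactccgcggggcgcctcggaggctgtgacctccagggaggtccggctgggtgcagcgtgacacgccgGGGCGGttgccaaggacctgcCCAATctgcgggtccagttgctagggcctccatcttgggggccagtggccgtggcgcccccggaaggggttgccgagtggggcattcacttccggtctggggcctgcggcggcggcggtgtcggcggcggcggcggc
DGCR8 promoter, chr22:20079991-20080290, + strand: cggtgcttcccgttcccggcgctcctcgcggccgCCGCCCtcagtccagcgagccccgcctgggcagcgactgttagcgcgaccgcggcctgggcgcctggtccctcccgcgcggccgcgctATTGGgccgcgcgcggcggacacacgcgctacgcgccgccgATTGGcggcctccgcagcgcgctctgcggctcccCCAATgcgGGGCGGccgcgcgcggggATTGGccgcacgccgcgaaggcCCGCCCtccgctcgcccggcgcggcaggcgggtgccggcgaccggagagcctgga

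AGO1 held 1 match to CCAAT and 2 to GGGCGG, AGO3 held 0 and 2, AGO4 held 0 and 0, TNRC6A held 1 and 1, and DGCR8 held 4 and 3. No match to TATAAA was found in the 5 windows. Over the 35116 promoter windows of the same length, 34.6% held CCAAT, 45.0% GGGCGG and 11.5% TATAAA on either strand. The 5 windows shared none of the 3 motifs throughout, although all were rich in G and C (from 69.0% in AGO4 to 80.3% in DGCR8). A match is a string of letters, not a measured binding site. The sequences of the DICER1, TARBP2, DROSHA and XPO5 promoters are not shown, and AGO2 had no promoter window of that length.

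The deposited values are log2 expression from RMA, a method that corrects background, normalizes across arrays and summarises probes, so a difference of 1 is a doubling. Array medians ran from 5.58 to 5.90 and lower quartiles from 4.09 to 4.16. All 10 genes read above the lower quartile on all 9 arrays, and 9 of them above the array median on all 9, AGO4 being above it on 5. As a check of the cells, 6 of 7 HEK293 markers read above the array median on all 9 arrays, and NEFM on 8, whereas 3 of 4 measured haematopoietic markers read below the lower quartile on all 9. CCAR2, the target of siDBC1, read 6.50, 6.54 and 6.65 in siDBC1 and 7.67, 7.67 and 7.84 in siCTR, a difference of -1.16 (SE 0.079, limma adjusted p = 0.0116). ZNF326 read 6.12, 5.56 and 5.81 in the arrays labelled siZNF326 and 5.25, 5.64 and 5.76 in siCTR, so the loss named by that label was not seen in the transcript (difference 0.28, 95% interval -0.63 to 1.20). For this reason siZNF326 is used below as a label of arrays.

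None of the 10 genes passed limma's test in any of the 3 comparisons, at an adjusted p under 0.05 over all 22011 probe sets. The background was thin as well: 0.15% of probe sets passed between the arrays labelled siZNF326 and siCTR, 0.0363% between siDBC1 and siCTR and 0.00909% between the arrays labelled siZNF326 and siDBC1. Without adjustment, 3 genes had a limma p under 0.05 in the arrays labelled siZNF326 against siCTR (TNRC6A, AGO1 and AGO3, all higher, where 6.13% of all probe sets were higher by that rule and 2.52% lower). In siDBC1 against siCTR there were 2 (AGO1 and DGCR8, both higher, against 3.63% of probe sets higher and 2.55% lower). Setting the arrays labelled siZNF326 against siDBC1 gave 1 (AGO3, higher, against 4.88% of probe sets higher and 2.43% lower). With 10 genes these counts are small, and they describe the genes without a test of the list.

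**Figure D1:**
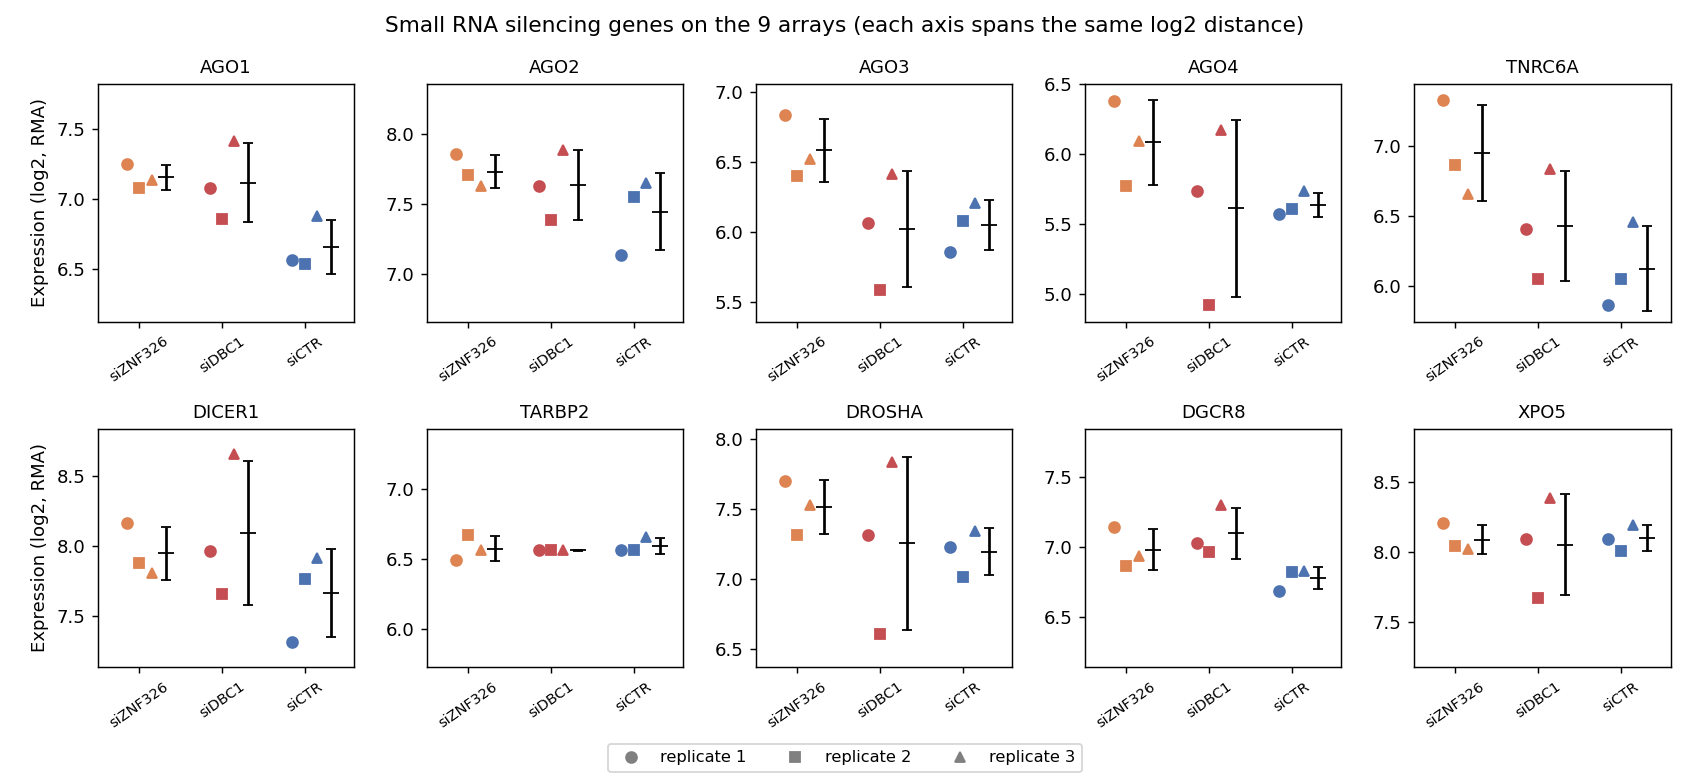
Expression (log2, RMA) of the 10 genes, with a point for each array (shape marks the replicate number) and a bar for the mean and SD of the 3 arrays of each group. Axes start at different levels and span the same log2 distance. TNRC6A, AGO1, AGO3, AGO4 and DGCR8 read higher on all 3 arrays labelled siZNF326 than on any siCTR array, TARBP2 stays near 6.56, and the 3 siDBC1 arrays of DROSHA lie between 6.61 and 7.84.

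Argonautes bind the small RNA and find its target. AGO1 (probe set 2330075), which silences mainly without cutting, read 7.25, 7.07 and 7.14 in the arrays labelled siZNF326, 7.07, 6.85 and 7.41 in siDBC1 and 6.56, 6.53 and 6.88 in siCTR. The arrays labelled siZNF326 lay above every siCTR array, and 2 of the 3 siDBC1 arrays did, the second siDBC1 array (6.85) being just below the third siCTR array (6.88). After quantile normalization all 3 siDBC1 arrays of AGO1 lay above siCTR, as for 6.8% of all probe sets. The same held with arrays centred on their medians, as for 6.55%. The difference from siCTR was 0.50 for the arrays labelled siZNF326 (SE 0.16, 95% interval 0.13 to 0.86, or 1.41-fold, limma adjusted p = 0.402). For siDBC1 it was 0.46 (SE 0.16, 95% interval 0.092 to 0.82, or 1.37-fold, limma adjusted p = 0.707). Neither passed, and the 2 differences share the same siCTR arrays. AGO1 differed by 0.039 between the arrays labelled siZNF326 and siDBC1 (95% interval -0.33 to 0.41), with -0.092 after quantile normalization and -0.038 with arrays centred on their medians.

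AGO2 (probe set 3156193), the slicing argonaute, read 7.86, 7.71 and 7.63 in the arrays labelled siZNF326, 7.63, 7.39 and 7.89 in siDBC1 and 7.14, 7.55 and 7.65 in siCTR. Its groups overlapped, and the first siCTR array was the lowest of the 9. The difference from siCTR was 0.29 in the arrays labelled siZNF326 (95% interval -0.11 to 0.68, limma adjusted p = 0.674) and 0.19 in siDBC1 (95% interval -0.21 to 0.59, limma adjusted p = 0.968). The first interval includes 0.50, the value of AGO1. Without the first siCTR array the difference of AGO2 was 0.13 in the arrays labelled siZNF326 and 0.032 in siDBC1.

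AGO3 and AGO4, the other argonautes of the chromosome 1 cluster, had an SD of 0.42 and 0.63 over the siDBC1 arrays, against 0.18 and 0.086 over the siCTR arrays. AGO3 (probe set 2330133) read 6.83, 6.40 and 6.52 in the arrays labelled siZNF326, 6.07, 5.58 and 6.41 in siDBC1 and 5.85, 6.08 and 6.21 in siCTR. AGO4 (probe set 2330002) read 6.38, 5.78 and 6.10 in the arrays labelled siZNF326, 5.74, 4.93 and 6.18 in siDBC1 and 5.57, 5.61 and 5.74 in siCTR. For both genes the arrays labelled siZNF326 lay above all siCTR arrays, although for AGO4 the lowest of them, 5.78, was close to the highest siCTR array, 5.74, and the siDBC1 arrays spread below and above siCTR.

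AGO3 differed from siCTR by 0.54 in the arrays labelled siZNF326 (SE 0.22, 95% interval 0.031 to 1.04, or 1.45-fold, limma adjusted p = 0.551) and by -0.026 in siDBC1 (95% interval -0.53 to 0.48, adjusted p = 0.999). AGO4 differed by 0.44 (95% interval -0.25 to 1.14, limma adjusted p = 0.706) and by -0.026 (95% interval -0.72 to 0.67, adjusted p = 0.999). Set directly against siDBC1, the arrays labelled siZNF326 were higher by 0.56 for AGO3 (SE 0.22, limma adjusted p = 0.666) and by 0.47 for AGO4 (SE 0.30, limma adjusted p = 0.761). The 3 clustered argonautes thus differed from siCTR by 0.44 to 0.54 in the arrays labelled siZNF326, while in siDBC1 AGO1 stood at 0.46 and the other two at -0.026. Whether those differences themselves differ between genes was not tested. The siDBC1 values rest on single arrays: without the second siDBC1 array they were 0.19 for AGO3 and 0.32 for AGO4, and without the third -0.22 and -0.31. Without the first array labelled siZNF326 the difference of AGO4 from siCTR in that group was 0.30.

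TNRC6A, also called GW182, is the scaffold that links an argonaute to deadenylases. Its probe set, 3653398 on chromosome 16, read 7.33, 6.87 and 6.66 in the arrays labelled siZNF326, 6.41, 6.05 and 6.83 in siDBC1 and 5.86, 6.05 and 6.46 in siCTR. All 3 arrays labelled siZNF326 were above all siCTR arrays, while siDBC1 overlapped both groups. TNRC6A had the widest range of the 10 genes over the 9 arrays, 1.47, and the highest mean difference of the 10 in the arrays labelled siZNF326 against siCTR, 0.83 (SE 0.26, 95% interval 0.23 to 1.43, or 1.77-fold, limma adjusted p = 0.390). In siDBC1 the difference from siCTR was 0.31 (95% interval -0.29 to 0.90, adjusted p = 0.959), with 0.18 without the first siCTR array, 0.47 without the third, 0.50 without the second siDBC1 array and 0.10 without the third. Against siDBC1 the arrays labelled siZNF326 differed by 0.52 (95% interval -0.077 to 1.12, limma adjusted p = 0.718). The difference from siCTR in the arrays labelled siZNF326 ranged from 0.64 to 0.99 when each array was left out in turn, with a lowest adjusted p of 0.255 in limma's test.

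The profile of TNRC6A over the 9 arrays, centred on its own mean, was closest to that of DYNC1LI2, a dynein light intermediate chain, with a root mean square distance of 0.089 on the log2 scale. Next came DUSP14, a phosphatase, at 0.096 and RAPGEF2, an exchange factor for Rap GTPases, at 0.10. Among the other 9 genes of the set AGO3 was closest at 0.19, which was rank 271 among all genes. These 9 arrays share 3 groups and differ in level as a whole, and the distance is a description.

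DICER1 (probe set 3577870, chromosome 14), the cytoplasmic nuclease, read 8.16, 7.88 and 7.81 in the arrays labelled siZNF326, 7.97, 7.66 and 8.66 in siDBC1 and 7.32, 7.77 and 7.92 in siCTR. Its groups overlapped, with the first siCTR array low and the third siDBC1 array high. The difference from siCTR was 0.28 in the arrays labelled siZNF326 (95% interval -0.34 to 0.91, limma adjusted p = 0.784) and 0.43 in siDBC1 (95% interval -0.19 to 1.05, limma adjusted p = 0.930). Without the first siCTR array the value in the arrays labelled siZNF326 was 0.11. The value in siDBC1 was 0.15 without the third siDBC1 array and 0.65 without the second. TARBP2 (probe set 3416114, chromosome 12), the double-stranded RNA binding partner of Dicer, read 6.49, 6.67 and 6.56 in the arrays labelled siZNF326, 6.56, 6.56 and 6.56 in siDBC1 and 6.56, 6.56 and 6.66 in siCTR. It had the identical value 6.559 on 5 of the 9 arrays, and 4 of the 10 genes had a value repeated on at least 2 arrays. Its differences from siCTR, -0.020 in the arrays labelled siZNF326 (95% interval -0.19 to 0.15) and -0.032 in siDBC1 (95% interval -0.20 to 0.14), had the narrowest intervals of the 10.

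In the nucleus, DROSHA cuts the hairpin and DGCR8 holds it. DROSHA (probe set 2851965, chromosome 5) read 7.70, 7.32 and 7.52 in the arrays labelled siZNF326, 7.32, 6.61 and 7.84 in siDBC1 and 7.23, 7.01 and 7.34 in siCTR. The second siDBC1 array was the lowest and the third the highest of the 9, a span of 1.23 within 1 group. DROSHA differed from siCTR by 0.32 in the arrays labelled siZNF326 (95% interval -0.34 to 0.98, adjusted p = 0.771) and by 0.060 in siDBC1 (95% interval -0.60 to 0.72, adjusted p = 0.999), and the value for siDBC1 was 0.38 without the second siDBC1 array and -0.23 without the third.

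DGCR8 (probe set 3937183, chromosome 22) read 7.14, 6.86 and 6.93 in the arrays labelled siZNF326, 7.02, 6.96 and 7.30 in siDBC1 and 6.68, 6.82 and 6.83 in siCTR. In the deposited values both other groups lay wholly above siCTR, and DGCR8 was the 1 gene of the 10 for which that held in both comparisons. After quantile normalization, or with arrays centred on their medians, that gene was AGO1 instead. The difference was 0.20 in the arrays labelled siZNF326 (SE 0.12, 95% interval -0.072 to 0.48, or 1.15-fold, limma adjusted p = 0.669) and 0.32 in siDBC1 (SE 0.12, 95% interval 0.044 to 0.59, or 1.25-fold, limma adjusted p = 0.743). The gap to siCTR was narrow in the arrays labelled siZNF326, where the lowest array, 6.86, lay beside the highest siCTR array, 6.83, and it closed when arrays were centred on their medians or quantile normalized. Without the first array labelled siZNF326 the difference there was 0.12. In siDBC1 the gap remained under both scalings. Against siDBC1, DGCR8 in the arrays labelled siZNF326 differed by -0.12 (95% interval -0.39 to 0.16, adjusted p = 0.818). That difference was -0.25 after quantile normalization (limma adjusted p = 0.412) and -0.19 with arrays centred (limma adjusted p = 0.584). Under both scalings the arrays labelled siZNF326 lay wholly below siDBC1 for DGCR8, as for 6.06% and 6.69% of all probe sets.

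XPO5 (probe set 2954678, chromosome 6), which exports pre-microRNA hairpins, read 8.20, 8.04 and 8.02 in the arrays labelled siZNF326, 8.09, 7.67 and 8.39 in siDBC1 and 8.09, 8.01 and 8.19 in siCTR. All groups overlapped, and the siCTR arrays lay inside the siDBC1 range. Its difference from siCTR was -0.011 in the arrays labelled siZNF326 (95% interval -0.41 to 0.38) and -0.048 in siDBC1 (95% interval -0.44 to 0.35).

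**Figure D2:**
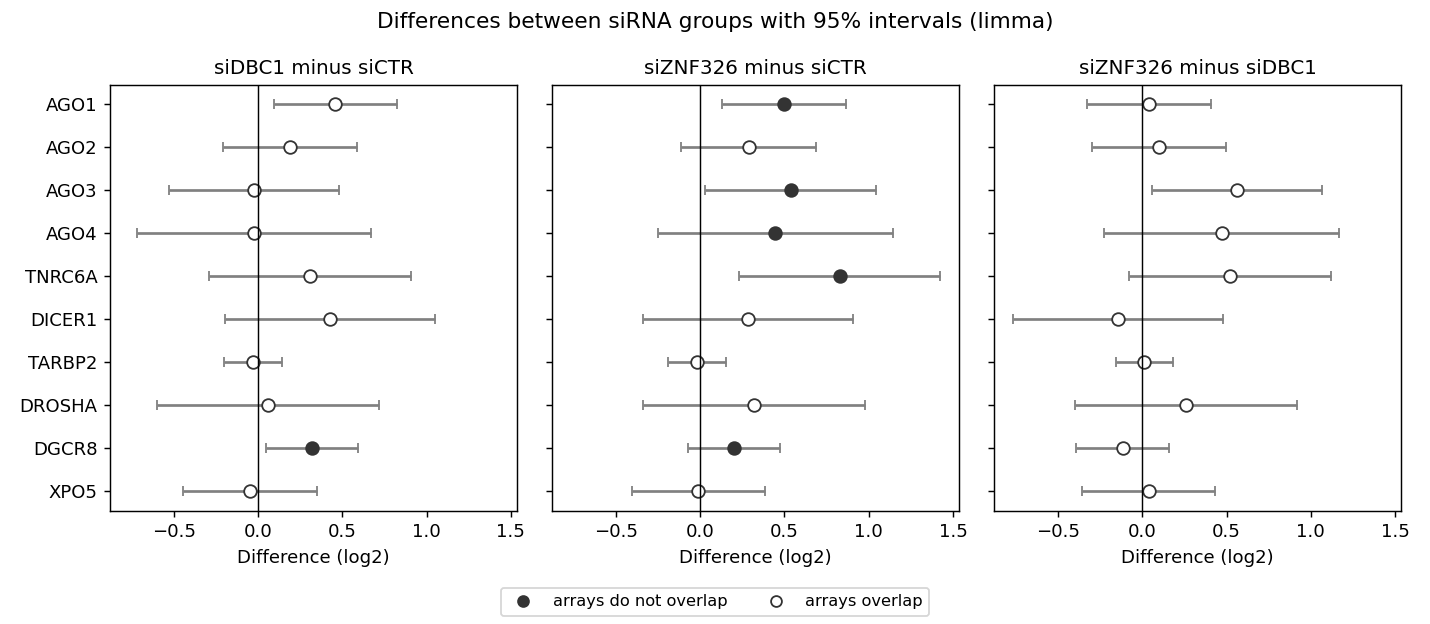
Difference in log2 expression of each of the 10 genes for the 3 comparisons, with 95% intervals from limma. Filled points are genes whose 3 arrays of one group did not overlap the 3 of the other: 5 in siZNF326 minus siCTR (AGO1, AGO3, AGO4, TNRC6A and DGCR8), 1 in siDBC1 minus siCTR (DGCR8) and 0 in siZNF326 minus siDBC1.

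In the arrays labelled siZNF326, 8 of 10 differences from siCTR were above 0, as were 56.6% of all probe sets, and the median was 0.30 against 0.033 over all genes. The median was 0.16 after quantile normalization, against -0.039 over all probe sets, and 0.21 with arrays centred on their medians, against -0.059. For 5 of the 10 the arrays did not overlap and were higher, and 12.9% of all probe sets were higher in that way, with 0 of 10 lower against 5.27% of probe sets. Both scalings kept AGO1, AGO3, AGO4 and TNRC6A apart from siCTR on the higher side (11.3% of probe sets after quantile normalization, 11.2% after centring). XPO5 was lower without overlap after quantile normalization, where 14.3% of all probe sets were lower in that way. After centring 0 of 10 were lower, against 14.5% of probe sets. Without the third siCTR array 8 genes did not overlap, where 26.0% of all probe sets were higher.

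In siDBC1, 6 of 10 differences from siCTR were above 0, as were 53.8% of probe sets, and the median was 0.12 against 0.013 over all genes. Quantile normalization gave a median of 0.105 (0.0015 over all probe sets), and centring gave 0.109 (-0.00065). DGCR8 was the only one of the 10 without overlap in the deposited values, where 5.18% of all probe sets were higher and 3.66% lower. After quantile normalization AGO1, DICER1 and DGCR8 were apart on the higher side (6.8% of probe sets). With arrays centred AGO1 and DGCR8 were (6.55%). The median was 0.35 without the second siDBC1 array, 0.015 without the third, 0.055 without the first siCTR array and 0.21 without the third. Omitting an array cannot make groups overlap that were apart, so DGCR8 stayed apart in each of the 9 omissions by construction. Without the second siDBC1 array 4 genes (AGO1, AGO4, DICER1 and DGCR8) were apart on the higher side, against 15.8% of probe sets.

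Between the arrays labelled siZNF326 and siDBC1, 8 of 10 differences were above 0, as were 55.4% of probe sets, and the median was 0.069, against 0.026 over all genes. It was -0.065 under quantile normalization, against -0.032 over all probe sets, and -0.0077 with arrays centred, against -0.053. No gene was without overlap in the deposited values (5.21% of probe sets were higher and 4.24% lower). Without the third siDBC1 array the median was 0.22 and AGO1, AGO3, AGO4 and TNRC6A were higher without overlap, against 22.6% of probe sets. Without the second siDBC1 array the median was -0.044. AGO3, TNRC6A and AGO4 had the highest differences of the 10, at 0.56, 0.52 and 0.47, and without the second siDBC1 array these were 0.34 for AGO3, 0.33 for TNRC6A and 0.13 for AGO4. DICER1 and DGCR8 were the 2 genes below 0.

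**Figure D3:**
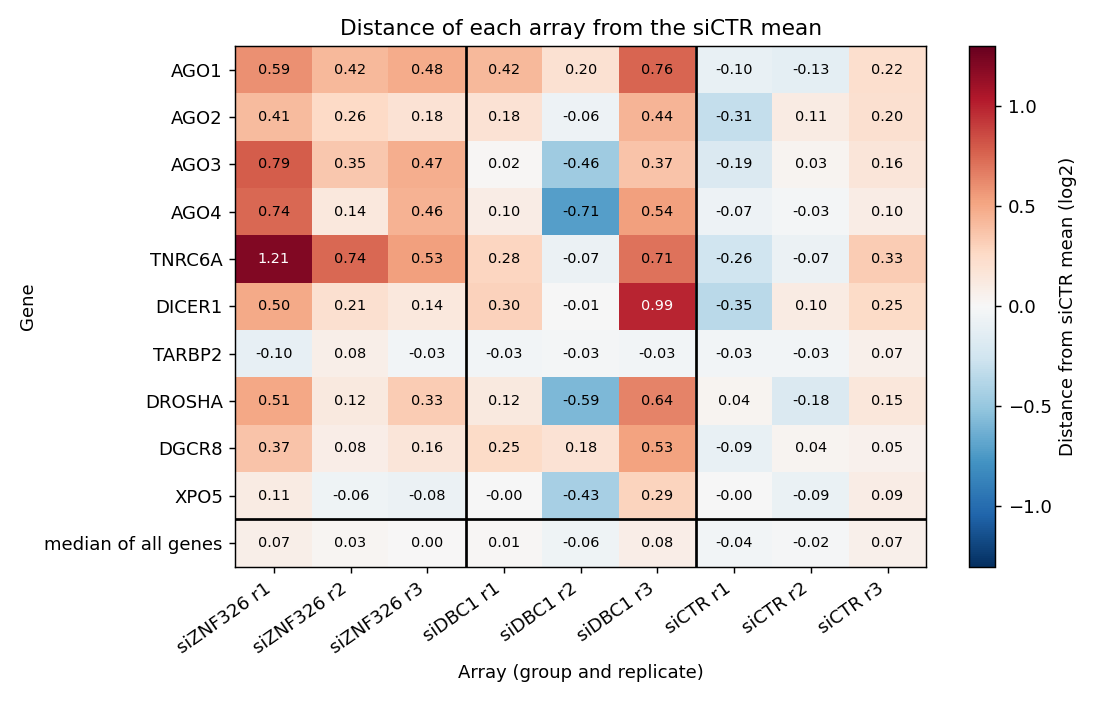
Distance of each gene on each array from its siCTR mean (log2), with the median of all genes in the bottom row. The second siDBC1 array is at or below the siCTR mean for 8 of the 10 genes and the third is above it for 9, and TNRC6A on the first array labelled siZNF326 has the highest value shown, 1.21.

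Arrays of 1 group also differed from each other across most of the 10 genes. The third siDBC1 array exceeded the second for 9 of 10 genes, by a median of 0.75, where it did so for 62.8% of all probe sets, by a median of 0.19. The first array labelled siZNF326 exceeded the second for 9 of 10 genes, by a median of 0.28, where it did so for 59.8% of probe sets, by a median of 0.079. In siCTR the third array was above the first for 10 of 10 genes, by a median of 0.24, against 66.8% of probe sets and a median of 0.095. TARBP2 was the exception in both other groups.

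Array medians were 5.90, 5.77 and 5.76 in the arrays labelled siZNF326, 5.73, 5.58 and 5.89 in siDBC1 and 5.67, 5.71 and 5.78 in siCTR. The median distance of the 10 genes from their siCTR means was 0.50, 0.17 and 0.26 in the arrays labelled siZNF326, 0.15, -0.067 and 0.53 in siDBC1 and -0.095, -0.031 and 0.15 in siCTR. The third siDBC1 array and the first labelled siZNF326, which have the 2 highest array medians, held the highest values of 6 and 3 of the 10 genes. The part of array level in the differences between groups was not tested; the values under both scalings are given above. The SD within groups, pooled over the 3 groups, was 0.41 for AGO4, 0.39 for DROSHA, 0.36 for DICER1 and 0.35 for TNRC6A, against a median of 0.18 over all genes, and AGO4 stood at the 90.1st percentile of genes in this spread. DGCR8 at 0.14 and TARBP2 at 0.061 were the 2 of the 10 below that median.

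The other genes of the pathway came from a list of 53, of which 44 had a probe set of 1 symbol. None passed limma's test in any of the 3 comparisons. Without adjustment, 6 of 44 were higher and 0 lower in the arrays labelled siZNF326 against siCTR, 3 higher and 1 lower in siDBC1 against siCTR, and 3 higher and 0 lower in the arrays labelled siZNF326 against siDBC1. Over all probe sets 6.13% were higher and 2.52% lower by that rule in the first of these comparisons, 3.63% and 2.55% in the second and 4.88% and 2.43% in the third, and 3 of 44 is near those shares. The median of the 44 differences was 0.18 in the arrays labelled siZNF326 against siCTR (0.033 over all genes), 0.072 in siDBC1 against siCTR (0.013 over all genes) and 0.17 in the arrays labelled siZNF326 against siDBC1 (0.026 over all genes). The median distance of the 44 genes from their siCTR means was 0.44, 0.083 and 0.097 on the arrays labelled siZNF326. It was 0.067, -0.26 and 0.40 in siDBC1 and -0.051, -0.041 and 0.13 in siCTR. Among the arrays labelled siZNF326, only replicate 1 lay above every siCTR array in this median. Values under quantile normalization or centring are not given for the 44. In the arrays labelled siZNF326 35 of 44 differences from siCTR were above 0, as were 56.6% of all probe sets, and in siDBC1 30 of 44 were, as were 53.8% of all probe sets.

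Of the genes that take part in processing, 13 were measured, with a median difference from siCTR of 0.17 in the arrays labelled siZNF326 and 0.067 in siDBC1. SRRT, also called ARS2, which couples capped primary transcripts to the Microprocessor, had the smallest p of the list in the arrays labelled siZNF326. It read 8.08, 7.97 and 7.98 there, 7.83, 7.57 and 7.97 in siDBC1 and 7.42, 7.38 and 7.62 in siCTR. All 3 arrays labelled siZNF326 lay above all others, the closest being the third siDBC1 array. SRRT differed from siCTR by 0.54 in the arrays labelled siZNF326 (SE 0.12, limma adjusted p = 0.217) and by 0.31 in siDBC1 (limma adjusted p = 0.765). NCBP2, a subunit of the nuclear cap-binding complex with which SRRT works, was among the 4 smallest p values between the arrays labelled siZNF326 and siDBC1, with a difference of 0.70 (SE 0.21, limma adjusted p = 0.609).

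Of the genes of loading and guide handling, 11 were measured, with a median difference from siCTR of 0.29 in the arrays labelled siZNF326 and 0.18 in siDBC1. IPO8, an importin that carries argonautes into the nucleus and helps them reach their targets, stood highest in both comparisons. It read 8.53, 7.91 and 7.62 in the arrays labelled siZNF326, 7.66, 7.22 and 8.44 in siDBC1 and 6.65, 6.70 and 6.97 in siCTR. Both groups lay wholly above siCTR, with a difference of 1.25 in the arrays labelled siZNF326 (SE 0.33, or 2.37-fold, limma adjusted p = 0.314) and 1.0 in siDBC1 (SE 0.33, limma adjusted p = 0.686). HSPA8, a chaperone that helps argonautes open for loading, was among the 4 smallest p values in siDBC1 with a difference of 0.18 (limma adjusted p = 0.793).

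Of the silencing effectors, 16 were measured, with a median difference from siCTR of 0.11 in the arrays labelled siZNF326 and 0.089 in siDBC1. TNRC6B, a paralogue of TNRC6A, read 7.86, 7.59 and 7.50 in the arrays labelled siZNF326, 7.14, 6.91 and 7.47 in siDBC1 and 6.61, 7.20 and 7.20 in siCTR. As for TNRC6A, all 3 arrays labelled siZNF326 lay above siCTR, by 0.65 on average (SE 0.21, limma adjusted p = 0.407). For TNRC6C, another paralogue, these arrays overlapped siCTR, with a difference of 0.025 (SE 0.13, limma adjusted p = 0.964). DDX6, a helicase that follows the deadenylases, differed by 0.72 in the same comparison (SE 0.24, limma adjusted p = 0.435). Set against siDBC1, the arrays labelled siZNF326 were above by 0.48 for TNRC6B (limma adjusted p = 0.684) and 0.66 for DDX6 (limma adjusted p = 0.657). TNRC6C differed by -0.11 in that comparison (limma adjusted p = 0.838). CNOT8, a deadenylase subunit, had the smallest p of the list in siDBC1. It read 8.25, 7.99 and 8.11 in the arrays labelled siZNF326, 7.55, 6.84 and 7.72 in siDBC1 and 8.08, 8.0 and 7.99 in siCTR. All 3 siDBC1 arrays were below all others, with a difference of -0.65 from siCTR (SE 0.21, limma adjusted p = 0.663), and the arrays labelled siZNF326 were above siDBC1 by 0.75 (SE 0.21, limma adjusted p = 0.608).

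The PIWI proteins are argonaute relatives of the germ line. PIWIL1, PIWIL2, PIWIL3 and PIWIL4 read below the lower quartile of the array on all 9 arrays, and their differences ran from -0.087 to 0.036 over the 3 comparisons.

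**Figure D4:**
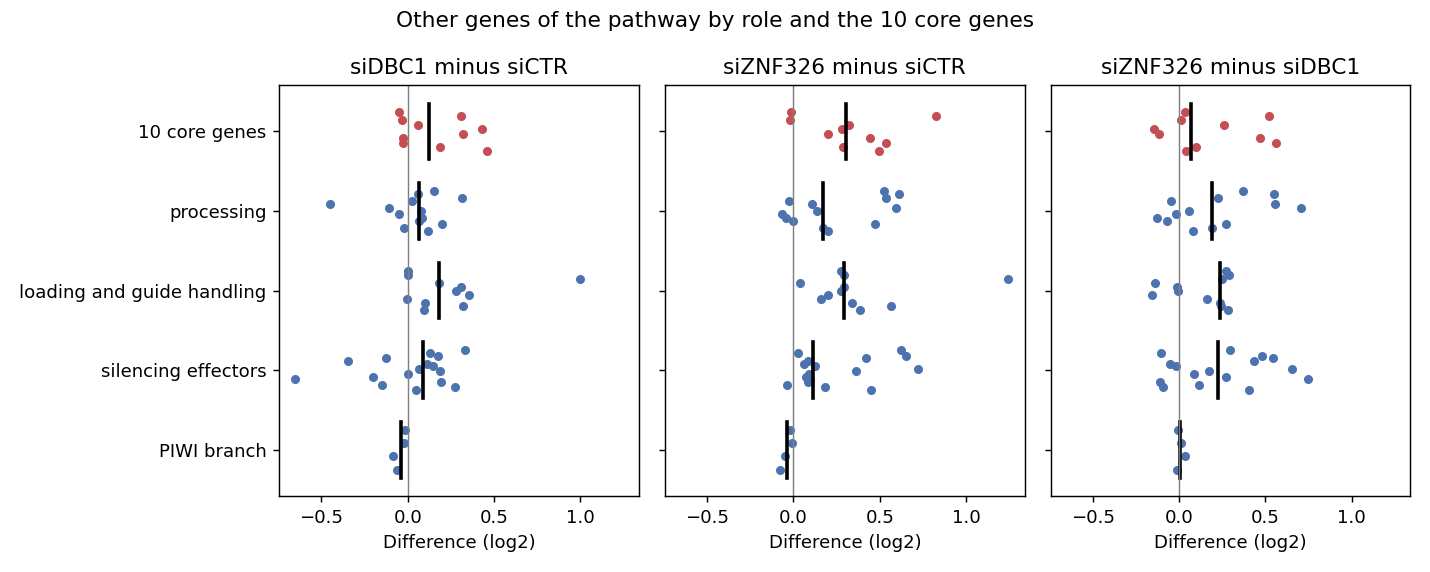
Difference in log2 expression for the 10 genes described above (red) and the 44 other measured genes of the pathway by role (blue), with a black bar at the median of each row. In siZNF326 minus siCTR the medians run from -0.036 for the PIWI genes to 0.30 for the 10 genes, and IPO8 at 1.25 is the point farthest from 0.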

How the data were processed

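Transcript levels were measured on 9 arrays, 3 per siRNA. The authors deposited log2 values from RMA, 1 per transcript cluster and array, and annotation on hg18, per the submitters' processing notes. Software version and filters: not given in the sources used here. No scanner, detection or exon-level values were used here. Of 22011 probe sets, 14432 carried 1 symbol, 2408 several and 5171 none in the platform annotation. Each of the 10 genes had 1 probe set, and all 10 gene identifiers carried the same symbol in the RefSeq table (assembly GRCh38.p14). Of the 53 listed pathway genes 9 had no probe set with 1 symbol.

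Group means of all probe sets were modelled in limma 3.58.1 (R 4.3.3), without a replicate block, and each pair of groups was compared by a two-sided moderated test with p values adjusted by Benjamini and Hochberg over all 22011 probe sets. An adjusted p under 0.05 was a call. The fit was run on simulated data with independent noise per probe set and array. That simulation held no shifts shared across an array, so it does not address them. Groups were called not overlapping when the lowest array of one exceeded the highest of the other. The number of arrays, not a count of molecules, limits the precision. The members and lists were chosen with earlier results of these data known. Genes named were the 10 members, the 2 siRNA targets, up to 4 listed pathway genes with the smallest p per comparison, and the 3 nearest profiles to the member with the widest range. TNRC6C was added beside its paralogues TNRC6A and TNRC6B. The marker lists were HEK293, haematopoietic, fibroblast and endothelial genes; of 3 fibroblast and 2 endothelial genes measured, 1 each read below the lower quartile on all arrays, and COL1A1 read above the median. Alternatives were quantile normalization, centred arrays, a replicate block, fits of 2 groups only, a filter on dim probe sets, an intensity trend, averaged probe sets and omission of each array.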

Additional observations from a re-analysis of the deposited data

How the results depend on the processing

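No call was made for any of the 10 genes by limma under any alternative listed above, the omission of each of the 9 arrays included. Among the recomputed differences of single genes, 452 kept their sign and side of the threshold and 28 changed sign. The sign was fixed in advance for part of the 452. A replicate block, fits of 2 groups only, the dim filter, the intensity trend and averaged probe sets left these differences themselves unchanged. So did omission of an array outside the comparison. After quantile normalization the difference between the arrays labelled siZNF326 and siDBC1 turned to -0.092 for AGO1, -0.037 for AGO2, -0.10 for TARBP2 and -0.098 for XPO5, and with arrays centred to -0.038 for AGO1, -0.065 for TARBP2 and -0.040 for XPO5. Centring takes 1 constant from every gene of a comparison, so these 3 near-zero values changed sign by construction. The other reversals came from omitting 1 array. In siDBC1 against siCTR the ranges were -0.22 to 0.19 for AGO3, -0.31 to 0.32 for AGO4, -0.048 to 0.00095 for TARBP2, -0.23 to 0.38 for DROSHA and -0.22 to 0.14 for XPO5. In the arrays labelled siZNF326 against siCTR they were -0.068 to 0.021 for TARBP2 and -0.070 to 0.036 for XPO5. Between the arrays labelled siZNF326 and siDBC1 they were -0.090 to 0.19 for AGO1, -0.025 to 0.23 for AGO2, -0.36 to 0.14 for DICER1, -0.036 to 0.053 for TARBP2, -0.063 to 0.55 for DROSHA and -0.15 to 0.20 for XPO5.

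Omitting 1 array moved the median of the 10 genes from 0.015 to 0.35 in siDBC1 against siCTR, 0.23 to 0.40 in the arrays labelled siZNF326 against siCTR and -0.044 to 0.22 between the arrays labelled siZNF326 and siDBC1, where quantile normalization gave -0.065. Members without overlap, an alternative chosen after seeing the data, numbered 3 in siDBC1 against siCTR after quantile normalization, all higher (6.8% of probe sets higher, 7.96% lower), 2 with centred arrays, both higher (6.55% and 6.77%), and 1 to 4 when 1 array was omitted, all higher (5.18% to 15.8% of probe sets higher). They numbered 5 to 8, all higher, in the arrays labelled siZNF326 against siCTR when 1 array was omitted (12.9% to 26.0% higher). Between the arrays labelled siZNF326 and siDBC1 they numbered 4 after quantile normalization, 2 higher and 2 lower (6.56% and 6.06% of probe sets), 2 with centred arrays, 1 higher and 1 lower (5.86% and 6.69%), and 0 to 4 when 1 array was omitted (5.21% to 22.6% higher, 4.24% to 12.0% lower). Omitting an array can only keep or raise such a count, so the low end of each range was fixed by the full set.

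Probe sets called numbered 8 in siDBC1 against siCTR, with 69 after quantile normalization, 46 with arrays centred, 4 with an intensity trend and 0 with only the 2 groups compared (limma, 1100 at an unadjusted p under 0.05). Omitting 1 array gave 0 to 4. In the arrays labelled siZNF326 against siCTR they numbered 33, with 196, 119 and 5 after quantile normalization, centring and in the fit of 2 groups, and 1 to 64 when 1 array was omitted. Between the arrays labelled siZNF326 and siDBC1 they numbered 2, with 28, 9 and 0 (limma, 1118 at an unadjusted p under 0.05), and 0 to 1 when 1 array was omitted. The higher calls were 20 of 33 in the arrays labelled siZNF326 against siCTR, 89 of 196 after quantile normalization and 57 of 119 with arrays centred. The cause of these shifts was not tested. With a replicate block the counts were 0, 1 and 0 (limma, 1360, 2007 and 1769 at an unadjusted p under 0.05). The labels do not say whether same-numbered arrays share an experiment. Same-numbered arrays correlated in their deviations from group means between -0.30 and 0.40, above 0.1 in 3 of 9 pairs. Arrays of unlike number in different groups correlated between -0.57 and 0.61. Of the 9 arrays, 4 were closest to one with their own number.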
